A study of Mus musculus with 9 samples.

Results

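STING KO libraries were compared with wild-type (WT) libraries of mouse striatum, 6 libraries of the 9 in the series, chosen by their labels: STING KO replicates 1 to 3 and WT replicates 1 to 3. Both groups are on a C57BL/6J background, the STING KO mice carry a CRISPR-Cas9 deficiency of Sting, and the brains were taken after an ischemic stroke, per the series. Uninjured striatum was not analysed here, and the edited exon, the founder lines, the time after the stroke, the side of the brain, and the age and sex of the mice are not given. The 3 cGAS KO libraries, from mice with a CRISPR-Cas9 deficiency of Cgas on the same background, entered the fit and are set beside the members where that helps. The labels do not say that replicates are separate animals, so p-values reflect only the spread among these libraries, which may be technical.

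STING is a receptor of the endoplasmic reticulum. It binds cGAMP, the messenger that the enzyme cGAS makes when it meets DNA in the cytosol, and recruits the kinase TBK1, which activates the transcription factor IRF3 and with it the type I interferon genes. NF-kB target genes are a further branch of its output. In the brain the pathway is known above all from microglia, the resident macrophages, and is studied in stroke because dying cells release DNA.

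Totals ranged from 14435122 to 21286775 counts in the 6 libraries. STING KO replicate 2 had 2280 genes with 1 to 9 counts and WT replicate 3 had 4699, against 7663 to 7927 in the other 4 libraries. Each comparison is therefore given over 9 libraries and over 6, without STING KO replicate 2, WT replicate 3 and the like cGAS KO replicate 2, which leaves 2 libraries a group. Levels are TMM-normalised counts scaled to library size (CPM), listed in the order of replicates 1, 2 and 3. Fold changes are log2 values of STING KO over WT. Markers of spiny projection neurons, the main neurons of the striatum, were present in all 6 libraries. Their summed level was 15670 to 16600 CPM in the STING KO libraries, against 17700 and 16490 CPM in WT replicates 1 and 2 and 9718 CPM in WT replicate 3.

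No gene passed the threshold over 9 libraries, and 4 passed over 6. By edgeR's quasi-likelihood test with Benjamini-Hochberg adjustment, 0 of 17821 genes (0%) had an adjusted p under 0.05 over 9 libraries. An unadjusted p under 0.05 was found for 291, with 0.898% of all genes higher in STING KO and 0.735% lower. That is less than the share of 0.05 that would be reached where no gene differs. DESeq2, without a count filter, called 10 of 31889 genes (0.0314%) over the same libraries. Over 6 libraries edgeR called 4 of 17657 genes (0.0227%). The activity-regulated genes Arc and Junb and the pseudogene Gm28438 rose in STING KO, and the mitochondrial gene mt-Nd3 fell. Over 7 libraries, with cGAS KO replicate 2 put back, 0 genes passed. As a description that needs no model, all 3 STING KO libraries lay above all 3 WT libraries in 3.40% of the tested genes and below them in 3.67%.

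Neither Sting1 nor any tested gene of its pathway passed the test in either fit. Sting1 was at 2.18, 1.05 and 1.84 CPM in STING KO against 4.06, 3.01 and 1.34 CPM in WT. WT replicate 3 lay within the STING KO range. The log2 fold change was -0.73 ± 0.50 (SE) over 9 libraries and -0.82 ± 0.32 (SE) over 6, and edgeR's adjusted p over 6 was 0.697. Cgas, which is not the edited gene in these mice, had a log2 fold change of -0.82 over 9 libraries and -0.41 over 6. A whole-gene count is a weak check of a label where the edited exon is not given. Of 28 genes of the cGAS and STING pathway, 27 were tested, 13 had a positive fold change, and the median was -0.03 over 9 libraries and -0.04 over 6, against 0.00 over all genes tested. Ikbke, a kinase related to TBK1, was at 2.92, 5.09 and 2.79 CPM in STING KO against 2.17, 1.77 and 1.84 CPM in WT, with no overlap. Lrrc8a, a subunit of the volume-regulated channel that passes cGAMP between cells, was at 9.70, 6.48 and 10.4 CPM against 10.5, 11.5 and 13.02 CPM. Neither passed the test. Adar, the RNA-editing enzyme with the highest level on this list, was at 156, 164 and 147 CPM against 128, 145 and 217 CPM, and the groups overlapped. Trex1, the cytosolic DNA exonuclease, had 0 counts in all 6 libraries.

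Genes on the Sting1 chromosome are a further point of comparison, since a knockout can carry flanking differences. Of 50 genes with a start within 1 Mb of Sting1, 36 were tested and 19 were positive, and the median was 0.03 in both fits. An unadjusted p under 0.05 with a higher level was found for 2 of them over 9 libraries, Egr1 and Hbegf, against 0.898% of all genes, and for 1 over 6, against 4.02%. Hbegf, a growth factor of the EGF family, was at 21.8, 24.1 and 20.2 CPM in STING KO against 17.9, 14.1 and 12.5 CPM in WT, without overlap. Egr1 is described with the immediate early genes.

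Many immediate early genes were higher in STING KO, most of them in replicates 1 and 3. Cells transcribe these genes within minutes of a stimulus and without new protein, because transcription factors such as CREB and SRF already wait at their promoters. In neurons synaptic activity is the usual stimulus, and the products are transcription factors of the AP-1, EGR and NR4A families and effectors at synapses and in kinase signalling. Of 64 members, 28 factors and 36 effectors, all were tested. A positive fold change was found in 57 over 9 libraries, with a median of 0.495, and in 61 over 6, with a median of 0.63. Over all genes tested 8809 of 17821 were positive, with a median of 0.00 in both fits. An unadjusted p under 0.05 with a higher level was found for 19 members over 9 libraries, against 0.898% of all genes, and for 39 over 6, against 4.02%. On the lower side there were 0 members in either fit, against 0.735% and 2.89% of all genes. In 15 of the 64 all STING KO libraries lay above all WT libraries, and in 0 below, against 3.40% and 3.67% of all genes. Over all genes edgeR called 0 of the 64 with 9 libraries and 2 with 6.

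The AP-1 factors come first. Fos (chromosome 12) was at 46.8, 13.2 and 28.1 CPM in STING KO against 5.24, 7.84 and 7.08 CPM in WT. Each STING KO library was above each WT library, with replicate 1 highest and replicate 2 lowest. Its log2 fold change was 2.13 ± 0.42 (SE) over 9 libraries and 2.52 ± 0.30 (SE) over 6, where edgeR's adjusted p was 0.0814. Fosl2 (chromosome 5) was at 64.4, 56.2 and 63.0 CPM in STING KO against 26.4, 14.9 and 26.7 CPM in WT. The groups did not overlap, and STING KO replicate 2 stood with the others. The log2 fold change was 1.43 ± 0.24 (SE) over 9 libraries and 1.62 ± 0.25 (SE) over 6 (edgeR adjusted p = 0.191). Junb (chromosome 8, 84974484 to 84978718, GRCm38), which pairs with Fos proteins in AP-1, was at 159, 31.1 and 119 CPM against 39.96, 30.6 and 16.1 CPM. STING KO replicate 2 lay within the WT range, and the other 2 were above every WT library. Over 6 libraries Junb rose by 1.98 ± 0.19 (SE) on the log2 scale (edgeR adjusted p = 0.0283), and over 9 the fold change was 1.83 ± 0.52 (SE, adjusted p = 1.0). Fosb was at 32.5, 7.25 and 20.6 CPM against 5.24, 8.21 and 8.21 CPM, again with replicate 2 among the WT values. Jund, a further AP-1 partner, was at 73.2, 15.9 and 59.1 CPM against 40.4, 38.6 and 13.1 CPM, and the 2 low values are those of STING KO replicate 2 and WT replicate 3.

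The zinc finger factors of the EGR family were high in the same libraries. Egr1 was at 544, 294 and 585 CPM in STING KO against 326, 244 and 178 CPM in WT, so that replicate 2 overlapped. Egr2 was at 45.9, 11.3 and 39.4 CPM against 11.8, 5.05 and 4.32 CPM, a log2 fold change of 2.18 ± 0.585 (SE) over 9 libraries. Egr4 was at 129, 26.8 and 120 CPM against 49.2, 29.2 and 9.41 CPM. Egr3 was at 267, 197 and 246 CPM against 150, 158 and 163 CPM, with no overlap. Its log2 fold change was 0.59 ± 0.17 (SE) over 9 libraries and 0.73 ± 0.14 (SE) over 6.

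The nuclear receptors Nr4a1 and Nr4a3 did not overlap between the groups. Nr4a1 was at 267, 99.2 and 250 CPM in STING KO against 96.8, 55.5 and 70.9 CPM in WT, with STING KO replicate 2 just above WT replicate 1. Nr4a3 was at 47.3, 34.1 and 55.5 CPM against 21.4, 10.8 and 26.8 CPM. Npas4, a factor restricted to neurons and induced by calcium entry, was at 50.6, 29.3 and 35.6 CPM against 14.0, 26.2 and 26.1 CPM, without overlap. Srf, the serum response factor that drives several of these genes, was at 83.8, 66.9 and 80.4 CPM against 55.2, 54.0 and 45.2 CPM. Its log2 fold change was 0.58 ± 0.16 (SE) over 9 libraries and 0.59 ± 0.12 (SE) over 6, and edgeR's adjusted p over 6 was 0.447.

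**Figure D1:**
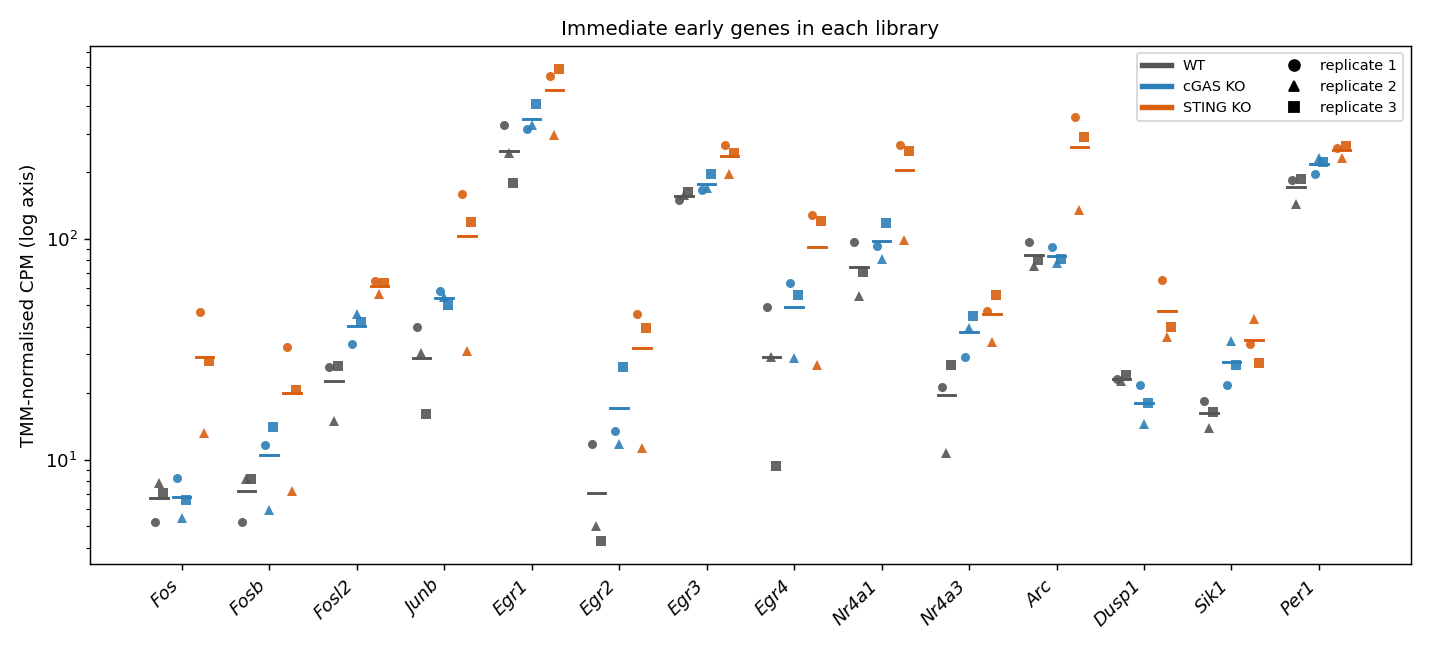
Level of 14 immediate early genes in each library, in TMM-normalised CPM on a log axis; symbols mark the replicate and short bars the mean of 3 libraries. STING KO replicate 2 (triangle) is the lowest STING KO value for each gene drawn except Sik1. Fosl2, Egr3, Nr4a1, Nr4a3, Fos, Arc, Dusp1, Sik1 and Per1 show no overlap with WT. Over all genes tested, 3.40% lay above WT in every STING KO library.

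Among the effectors Arc had the smallest p over 9 libraries. Arc (chromosome 15, 74669083 to 74672570, GRCm38) makes a capsid-like protein that removes AMPA receptors from active synapses. It was at 355, 135 and 289 CPM in STING KO against 97.3, 75.8 and 80.3 CPM in WT. All 3 STING KO libraries were above WT, with replicate 2 nearest. Over 6 libraries it rose by 1.89 ± 0.18 (SE) on the log2 scale (edgeR adjusted p = 0.0283), and over 9 the fold change was 1.62 ± 0.31 (SE, adjusted p = 1.0). In cGAS KO Arc was at 91.8, 77.6 and 80.8 CPM, within the WT range. Against cGAS KO its log2 fold change was 1.64 ± 0.31 (SE) over 9 libraries and it was 1 of 3 genes called over 6 (edgeR adjusted p = 0.0327).

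The remaining effectors include feedback inhibitors. Dusp1, a phosphatase that switches off MAP kinases, was at 65.0, 36.1 and 39.9 CPM in STING KO against 23.2, 22.8 and 24.1 CPM in WT. Dusp5, a phosphatase of ERK, was at 16.6, 8.15 and 13.5 CPM against 8.13, 5.10 and 7.71 CPM, with replicate 2 of STING KO barely above WT replicate 1. Sik1, a kinase that restrains CREB coactivators, was at 33.6, 43.4 and 27.6 CPM against 18.4, 14.0 and 16.4 CPM. Here STING KO replicate 2 was the highest library, unlike in most of the list. Per1, a clock repressor that CREB induces, was at 258, 233 and 263 CPM against 186, 144 and 188 CPM. Midn and Tiparp also showed no overlap, with 93.1, 59.9 and 85.8 CPM against 58.9, 36.8 and 55.8 CPM for Midn and 35.6, 33.2 and 37.3 CPM against 29.1, 24.6 and 24.7 CPM for Tiparp. Btg2, an antiproliferative gene, was at 26.9, 5.23 and 14.9 CPM against 7.54, 6.44 and 7.64 CPM, and Nptx2, a pentraxin that clusters AMPA receptors, at 34.9, 15.9 and 38.1 CPM against 19.2, 18.2 and 26.5 CPM. In both STING KO replicate 2 was below every WT library.

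The list thus split by library within STING KO. In replicate 1, 46 of the 64 members were above the highest WT library (71.9%), in replicate 3 it was 48 (75.0%), and in replicate 2 it was 19 (29.7%). Over all 17821 genes tested the shares were 25.9%, 22.2% and 23.5% in the same order. The summed level of the list was 4837, 2967 and 4682 CPM in STING KO against 3027, 2754 and 2445 CPM in WT and 3171, 3175 and 3250 CPM in cGAS KO. Markers of cortical projection neurons, which express many of these genes, differed between libraries as well. Their summed level was 1109, 613 and 894 CPM in STING KO against 396, 912 and 1907 CPM in WT, and 741.7, 953 and 490.5 CPM in cGAS KO. Of these 16 markers 2 were positive over 9 libraries and 15 over 6, with medians of -0.19 and 0.71. The median lay between -0.615 without WT replicate 1 and 0.545 without WT replicate 3 when 1 library was left out. STING KO replicate 1 had the highest immediate early sum and, after WT replicate 3, the highest cortical sum. WT replicate 3 had the lowest immediate early sum, and WT replicate 2 was above STING KO replicate 3 in the cortical sum. The part of tissue composition in the immediate early levels was not tested. In bulk tissue more cells of a type and more RNA per cell cannot be told apart.

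Promoters are shown for 4 of these genes because the core site of the cAMP response element, the sequence that CREB binds, recurs in them. Each runs from 250 bases before to 50 after the gene start (RefSeq, GRCm38.p6), 5′ to 3′ on the gene's strand, with TGACG and its reverse complement CGTCA in capitals. Fos is at chr12:85473640-85473939 (plus strand), Junb at chr8:84978699-84978998 (minus), Nr4a1 at chr15:101266596-101266895 (plus) and Dusp1 at chr17:26508423-26508722 (minus).
Fos: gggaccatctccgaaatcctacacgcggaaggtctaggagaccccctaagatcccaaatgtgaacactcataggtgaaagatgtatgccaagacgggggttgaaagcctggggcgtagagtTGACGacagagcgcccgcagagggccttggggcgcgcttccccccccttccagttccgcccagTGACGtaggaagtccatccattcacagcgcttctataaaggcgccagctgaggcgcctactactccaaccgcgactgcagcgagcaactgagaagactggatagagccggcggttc
Junb: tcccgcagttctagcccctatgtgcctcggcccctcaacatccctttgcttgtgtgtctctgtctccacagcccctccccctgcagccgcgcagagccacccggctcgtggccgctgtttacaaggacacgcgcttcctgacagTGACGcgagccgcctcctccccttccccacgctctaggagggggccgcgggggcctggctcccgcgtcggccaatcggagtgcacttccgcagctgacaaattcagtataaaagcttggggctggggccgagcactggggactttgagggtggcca
Nr4a1: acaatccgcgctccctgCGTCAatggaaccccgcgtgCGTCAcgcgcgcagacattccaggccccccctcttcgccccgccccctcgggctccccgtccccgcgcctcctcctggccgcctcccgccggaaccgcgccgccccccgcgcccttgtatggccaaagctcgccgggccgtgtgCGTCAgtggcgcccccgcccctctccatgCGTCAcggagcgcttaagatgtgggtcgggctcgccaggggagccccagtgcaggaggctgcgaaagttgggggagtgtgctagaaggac
Dusp1: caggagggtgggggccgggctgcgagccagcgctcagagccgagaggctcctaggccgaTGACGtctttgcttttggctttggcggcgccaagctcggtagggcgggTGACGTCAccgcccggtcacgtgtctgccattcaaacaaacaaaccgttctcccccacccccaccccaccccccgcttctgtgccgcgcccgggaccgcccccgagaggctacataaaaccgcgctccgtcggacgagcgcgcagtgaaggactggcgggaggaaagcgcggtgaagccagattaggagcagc
The Fos window holds 2 core sites, the Junb window 1, the Nr4a1 window 4 and the Dusp1 window 3, of which 2 overlap in the full palindrome TGACGTCA. A promoter of 300 bases was listed for 47 of the 64 members, and 33 of these (70.2%) held a core site on either strand, against 23.05% of the 27025 genes with a promoter. The full site was in 8 of the 47 (17.0%), against 2.03% of genes, and the CArG box of SRF in 4 (8.51%), against 1.81%. Fosl2 held none of the 3 motifs in its window. The comparison with all genes was not matched for base composition, and sites outside the window were not counted. A match describes the letters and does not show binding.

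The noncoding 1700016P03Rik was higher in all 3 STING KO libraries. This transcript on chromosome 11 (75172560 to 75177633, plus strand, GRCm38) contains the genes of the microRNAs miR-212 and miR-132, which CREB induces in active neurons. It was at 20.1, 20.1 and 18.1 CPM in STING KO against 5.24, 2.52 and 5.80 CPM in WT. No library overlapped, and STING KO replicate 2 was as high as replicate 1. The log2 fold change was 2.11 ± 0.37 (SE) over 9 libraries and 2.28 ± 0.36 (SE) over 6 (edgeR adjusted p = 0.191). In cGAS KO it was at 6.61, 8.98 and 4.13 CPM. The 2 mature microRNAs are shown because they share 1 seed, bases 2 to 8 in capitals, as RefSeq lists them on GRCm38.p6. miR-212-3p is at chr11:75173443-75173464 and miR-132-3p at chr11:75173723-75173744.
miR-212-3p: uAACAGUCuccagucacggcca
miR-132-3p: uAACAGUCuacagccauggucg
Mature microRNAs are not captured by a library of polyadenylated RNA. Named after its values were seen, the Mir132 gene inside the transcript had 13, 12 and 22 counts in STING KO and 10, 5 and 5 in WT, and how the counter divided reads between the overlapping genes is not stated.

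On the mitochondrial genome the counts of mt-Nd3, which encodes part of complex I of the respiratory chain, were low in STING KO, and those of its nuclear copy were high. mt-Nd3 (9459 to 9806 on the mitochondrial genome) was at 5.22, 1.74 and 3.97 CPM in STING KO, at 38.9, 44.3 and 14.9 CPM in WT and at 33.5, 41.9 and 68.7 CPM in cGAS KO. Gm28438 (chromosome 1, 24612775 to 24613119), a copy of it in nuclear DNA, was at 32.3, 44.0 and 31.9 CPM in STING KO against 3.88, 4.83 and 0.566 CPM in WT. Neither gene overlapped between STING KO and WT. Over 6 libraries mt-Nd3 fell by 3.18 ± 0.34 (SE) on the log2 scale (edgeR adjusted p = 0.0462) and Gm28438 rose by 2.88 ± 0.27 (SE, edgeR adjusted p = 0.0283). Over 9 libraries the fold changes were -3.16 ± 0.52 and 3.52 ± 0.63 (SE), both with an adjusted p of 0.794. The first 60 bases of both are shown because they hold the only difference in 345 positions compared, in capitals: T3C, where position 1 is the 5′ base of mt-Nd3 and the mitochondrial base is given first. They lie at chrM:9459-9518 (plus strand) and chr1:24613060-24613119 (minus strand) on GRCm38, from the GENCODE M21 transcripts.
mt-Nd3: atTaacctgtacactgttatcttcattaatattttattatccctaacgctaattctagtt
Gm28438: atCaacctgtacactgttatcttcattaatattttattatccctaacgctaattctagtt
By construction only a read that covers position 9461 of the mitochondrial genome can tell the 2 copies apart within these bases. The base there is known to differ between substrains of C57BL/6 mice, and which base the STING KO libraries carry was not tested, since reads were not used here.

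Of the counts on both genes, the share on Gm28438 was 86.1% (95% exact binomial interval 83.0 to 88.7), 96.2% (94.4 to 97.5) and 88.9% (86.2 to 91.2) in STING KO. In WT it was 9.07% (7.32 to 11.1), 9.84% (7.98 to 12) and 3.67% (1.6 to 7.1), and in cGAS KO 9.12%, 5.29% and 7.82%. The intervals cover counting error only. The mean difference between STING KO and WT was 82.9 percentage points, with p = 0.1 in an exact two-sided permutation test, the smallest p that 3 against 3 libraries allow. Summed over both genes the level was 37.5, 45.7 and 35.8 CPM in STING KO against 42.8, 49.1 and 15.4 CPM in WT, so the sums overlapped while the shares did not.

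**Figure D2:**
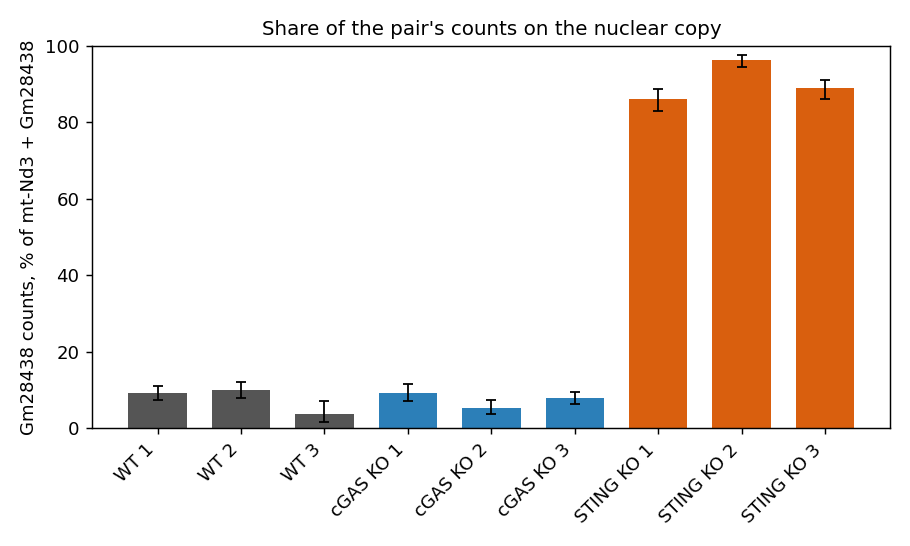
Share of the summed mt-Nd3 and Gm28438 counts that fell on Gm28438, in percent, for each library; error bars are exact 95% binomial intervals and cover counting error. The STING KO libraries stand at 86.1% to 96.2% and the other 6 at 3.67% to 9.84%.

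The tRNA genes on both sides of mt-Nd3 showed low counts in the same libraries. mt-Tg, the glycine tRNA gene that ends at 9458, had 0 counts in each STING KO library and 49, 27 and 4 counts in WT. Against a floor of 3 counts per library its mean level was at least 7.0-fold lower in STING KO. WT replicate 3 alone, with 4 counts, was near that floor. mt-Tr, the arginine tRNA gene that starts at 9808, had 4, 0 and 2 counts against 57, 50 and 60. Away from this site mt-Tn, the asparagine tRNA gene at 5089 to 5159, was at 5.53, 6.41 and 6.93 CPM against 15.3, 17.8 and 7.22 CPM. Of 37 mitochondrial genes 31 were tested, 11 had a positive fold change over 9 libraries and 5 over 6, with medians of -0.22 and -0.56. The median over 9 libraries lay between -0.504 without STING KO replicate 2 and -0.0471 without WT replicate 2 when 1 library was left out. The summed level of all mitochondrial genes was 53290, 63180 and 48470 CPM in STING KO against 62880, 78470 and 45390 CPM in WT, and overlapped. Gm28438 lies in a block of 7 copies on chromosome 1. The other 6, named after their values were seen, match mt-Nd4 (Gm28439), mt-Nd4l (Gm10222), mt-Co3 (Gm28437), mt-Atp6 (Gm10925), mt-Co2 (Gm28661) and mt-Co1 (Gm29216) at 99.8% identity or more, and all 6 overlapped between STING KO and WT.

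Other genes with the smallest p include AC149090.1, a gene of scaffold JH584304.1. It was at 1117, 1410 and 1118 CPM in STING KO against 176, 256 and 255 CPM in WT. In cGAS KO it was at 726, 383 and 217 CPM, so its libraries were spread between the groups. Transcripts of 3 more share near-identical sequence with other genes, between which the counter can divide reads. Gm10600 had 0 counts in every STING KO library and was at 1.44, 1.99 and 3.54 CPM in WT. Its mean level was at least 12.4-fold lower in STING KO, against a floor of 3 counts per library. Its transcript matches Gm17167 at 99.5% over 1940 bases. Srp54b, which matches Srp54c at 99.7% over 3646 bases, was at 6.40, 0.348 and 4.92 CPM in STING KO against 0.226, 0.698 and 0.142 CPM in WT, and STING KO replicate 2 lay among the WT values. Tmem181b-ps was at 262, 227 and 255 CPM against 125, 143 and 197 CPM, and shares 456 of its 2426 bases with Tmem181a without a mismatch. None of these 4 passed edgeR's threshold in either fit, and the levels of the 3 with shared sequence are uncertain. No sequence comparison is given for AC149090.1, so its level may be uncertain as well.

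No interferon or antigen presentation gene passed the test in either fit, and most members of these lists had a positive fold change over 9 libraries. Type I interferon response genes had 23 of 35 tested members positive over 9 libraries (median 0.11) and 17 of 35 over 6 (median -0.03). Interferon gamma response genes had 17 of 19 positive (median 0.33), and 14 of 19 over 6 (median 0.26). MHC class I genes had 14 of 21 positive (median 0.27), and 16 of 22 over 6 (median 0.40). The summed MHC class I level overlapped, at 800.7, 660.7 and 842.1 CPM in STING KO against 916.8, 837.7 and 637.2 CPM in WT. The type I sum overlapped as well. The interferon gamma sum did not, at 62.4, 81.8 and 71.8 CPM in STING KO against 56.1, 55.4 and 49.8 CPM in WT. When 1 library was left out of the 9, the MHC class I median lay between 0.0863 without WT replicate 3 and 0.694 without STING KO replicate 2. The type I median lay between -0.0465 without WT replicate 3 and 0.238 without WT replicate 1. The interferon gamma median lay between 0.392 and 0.486, all above its 0.33 over 9 libraries. Each of these fits chose its tested members anew. Members whose STING KO libraries all lay above WT numbered 3 on each list, against 3.40% of all genes. Tap1, which pumps peptides to MHC class I, was at 3.73, 8.50 and 3.58 CPM in STING KO against 2.57, 1.13 and 2.48 CPM in WT. Nlrc5, the transactivator of MHC class I genes, was at 1.62, 3.97 and 1.79 CPM against 0.542, 1.24 and 0.142 CPM, and counts on both lists. STING KO replicate 2 was the highest library for both. H2-K1, an MHC class I heavy chain, was at 19.7, 16.8 and 25.5 CPM against 17.4, 13.4 and 6.93 CPM, with overlap. Canx, the chaperone with the highest level on that list, was lower in each STING KO library, at 251, 275 and 269 CPM against 309, 318 and 304 CPM.

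Single interferon-responsive genes differed in direction. Gbp4, a guanylate-binding protein, was at 2.36, 4.67 and 4.81 CPM in STING KO against 1.76, 1.66 and 1.41 CPM in WT. Xaf1, a proapoptotic interferon target, was at 4.54, 5.86 and 7.77 CPM against 3.66, 3.60 and 1.70 CPM. Ifi44 was lower in each STING KO library, at 0.622, 0.488 and 0.447 CPM against 1.17, 1.18 and 0.849 CPM. In cGAS KO Gbp4 was at 2.21, 1.89 and 3.01 CPM and Xaf1 at 4.06, 6.26 and 3.21 CPM. Of 31 NF-kB and cytokine genes 19 were tested, with 10 positive and a median of 0.01. Relb, a noncanonical NF-kB subunit, was at 6.53, 5.65 and 5.25 CPM against 4.24, 3.33 and 2.55 CPM, without overlap. Named after their values were seen, the cytokine genes Tnf, Ccl2 and Cxcl2 had 0 counts in all 6 libraries, which allows 0.141 to 0.208 CPM at 3 counts. Of 19 leukocyte markers 16 had counts in the 6 libraries and 3 were tested. The T cell gene Cd3d, the neutrophil gene Ly6g and the cytotoxic cell gene Nkg7 had 0 counts in all 6 libraries. Other untested markers of these cells had a few, summed over the 6 libraries: Cd3e 2, S100a9 8 and Gzma 4. These counts are too low to tell whether such cells were present. Microglial markers had 8 of 18 positive, with a median of -0.01 over 9 libraries and -0.05 over 6.

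**Figure D3:**
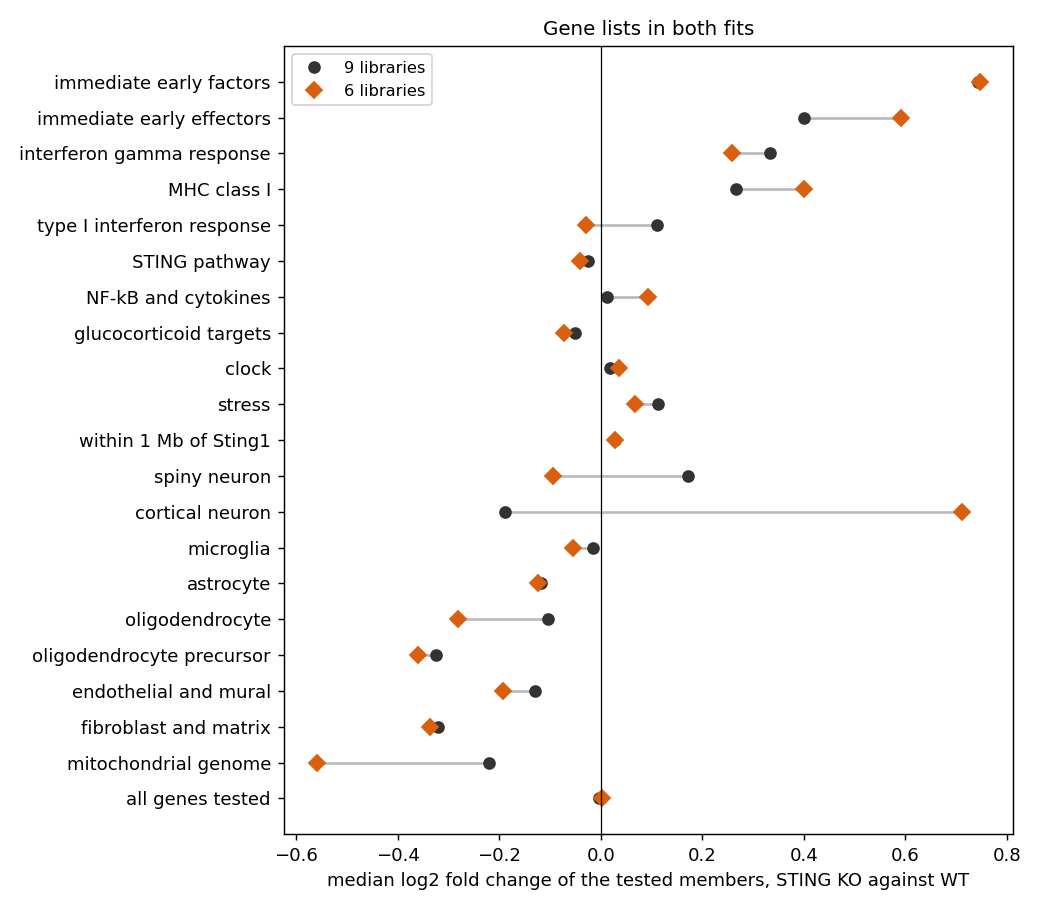
Median log2 fold change of STING KO against WT over the tested members of 20 gene lists and over all genes tested, from the fit of 9 libraries (circles) and of 6 (diamonds). The immediate early factors stand at 0.74 and 0.75, while the spiny neuron, cortical neuron and type I interferon medians change sign between the fits.

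Glucocorticoid targets had 4 of 14 members below WT in every STING KO library and 1 above, against 3.67% and 3.40% of all genes. Their summed level overlapped, at 553.3, 474.1 and 711.7 CPM in STING KO against 689.4, 662.2 and 447.7 CPM in WT. A positive fold change was found in 7 of 14 (median -0.05). That median lay between -0.268 without STING KO replicate 3 and 0.123 without STING KO replicate 2 when 1 library was left out. Zbtb16, a zinc finger repressor, was at 10.4, 6.97 and 13.8 CPM in STING KO against 16.4, 16.4 and 48.4 CPM in WT, with WT replicate 3 far above the other WT libraries. Sult1a1, a sulfotransferase, was at 4.79, 6.27 and 7.21 CPM against 11.1, 10.6 and 9.06 CPM. Gjb6, the astrocyte gap junction protein connexin 30, was at 26.3, 23.1 and 27.8 CPM against 36.0, 47.2 and 41.0 CPM. In cGAS KO it was at 28.3, 27.9 and 26.4 CPM, near STING KO, and the log2 fold change between the knockouts was -0.10 ± 0.17 (SE). The clock list had 8 of 16 positive and a median of 0.02, with Per1 and the repressor Nr1d1 above WT in each library. Nr1d1 was at 135, 112 and 127 CPM against 92.3, 109 and 74.6 CPM. Bhlhe41, a repressor in the same loop, was at 61.7, 55.1 and 64.6 CPM against 49.7, 49.1 and 24.9 CPM. Hspa1b, an inducible heat shock protein, was at 7.90, 2.37 and 2.12 CPM against 1.85, 1.18 and 0.778 CPM, while its list had 17 of 24 positive and a median of 0.11, between -0.0115 without WT replicate 3 and 0.267 without STING KO replicate 2 when 1 library was left out.

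Oligodendrocyte precursor, vessel and matrix genes were mostly lower in STING KO, and none passed the test. All 8 precursor markers had a negative fold change over 9 libraries (median -0.32) and 7 of 8 over 6 (median -0.36). With 1 library left out the median lay between -0.553 without STING KO replicate 2 and -0.178 without STING KO replicate 1. Gpr17, a receptor of committed precursors, was at 57.8, 66.3 and 77.7 CPM in STING KO against 114, 88.1 and 104 CPM in WT. Pdgfra, the growth factor receptor of precursors, was at 60.1, 57.8 and 54.3 CPM against 72.1, 76.9 and 84.3 CPM. Neither overlapped, but the summed precursor level did, at 627.6, 904 and 643 CPM against 786, 823 and 1366 CPM. Mature oligodendrocyte markers had 12 of 17 negative (median -0.10), and 14 of 17 over 6 libraries (median -0.28). That median turned positive without WT replicate 1, at 0.209, and was lowest without STING KO replicate 3, at -0.445. Their summed level was 8236, 12120 and 14390 CPM in STING KO against 19230, 12550 and 8373 CPM in WT. Ugt8a, an enzyme of myelin lipid synthesis, was at 79.1, 172 and 113 CPM against 199, 144 and 184 CPM, with overlap through replicate 2 only.

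Endothelial and mural markers had 16 of 25 negative (median -0.13), and 19 of 25 over 6 libraries (median -0.19). Leaving out WT replicate 3 gave -0.216 and leaving out WT replicate 2 gave -0.0573, the ends of its range. At edgeR's unadjusted p under 0.05 over 9 libraries, 3 of the 25 were lower and 1 was higher, against 0.735% and 0.898% of all genes. Slco1a4, a transporter of the blood-brain barrier, was at 78.0, 104 and 83.4 CPM in STING KO against 116, 124 and 124 CPM in WT. Kdr, the VEGF receptor, was at 17.4, 10.2 and 16.0 CPM against 22.8, 19.8 and 23.4 CPM. Mfsd2a, the lipid transporter that keeps the barrier tight, was at 23.1, 10.9 and 21.7 CPM against 37.0, 35.9 and 20.5 CPM, and WT replicate 3 overlapped. Fibroblast and matrix genes had 23 of 30 negative (median -0.32), and 26 of 30 over 6 (median -0.34), with a range of -0.373 without WT replicate 3 to -0.155 without WT replicate 1. Fn1, fibronectin, was at 58.1, 67.5 and 70.4 CPM against 77.1, 93.3 and 138 CPM, and Col4a1, a basement membrane collagen, at 46.8, 43.5 and 44.6 CPM against 51.0, 53.4 and 60.6 CPM. Their summed levels were 754.6, 624 and 729 CPM in STING KO against 904, 788 and 746 CPM in WT. Choroid plexus markers were high in single libraries, and their sum was 4599 CPM in WT replicate 1, 1268 CPM in STING KO replicate 2 and 292 to 429 CPM in the other 4. Mertk, the receptor with which astrocytes and microglia engulf synapses and debris, was at 41.7, 36.2 and 44.9 CPM against 57.8, 68.7 and 75.4 CPM, a log2 fold change of -0.72 ± 0.17 (SE) over 9 libraries and -0.55 ± 0.14 (SE) over 6. Pcdh20, a protocadherin, was at 9.14, 5.65 and 9.28 CPM against 14.0, 12.99 and 22.3 CPM.

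**Figure D4:**
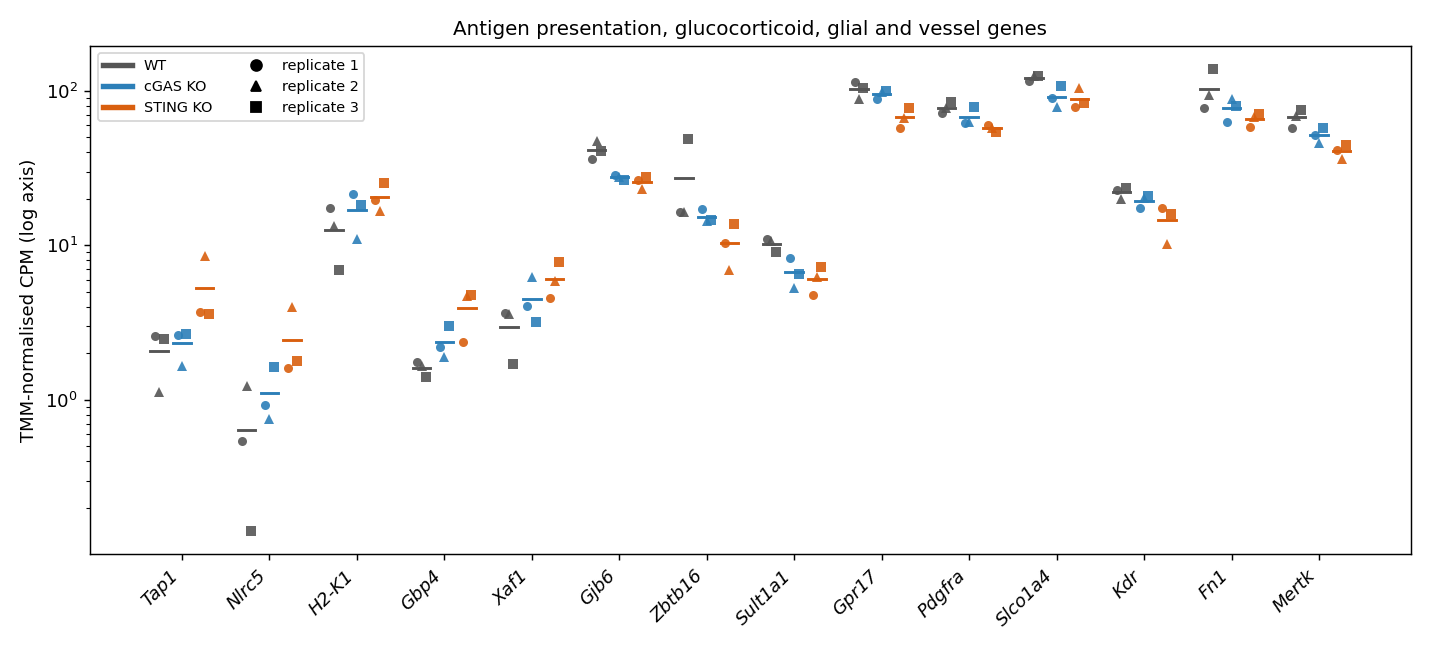
Level of 14 genes of antigen presentation, interferon, glucocorticoid, glial and vessel lists in each library, in TMM-normalised CPM on a log axis; symbols mark the replicate and short bars the mean of 3 libraries. H2-K1 overlaps between STING KO and WT, the other 13 genes do not, and none passed the test over all genes. The rule for named genes favours a small p and with it a lack of overlap. Over all genes tested, 3.40% lay above WT in every STING KO library and 3.67% below.

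Set directly against cGAS KO, STING KO had 0 of 17821 genes called over 9 libraries (0%) and 3 of 17657 over 6 (0.0170%): Arc and Gm28438 higher and mt-Nd3 lower. At an unadjusted p under 0.05 there were 258 of the 17821 genes over 9, again less than a share of 0.05. Some immediate early genes stood between the groups in cGAS KO. Fosl2 was at 33.4, 45.7 and 42.1 CPM there, above every WT library and below every STING KO library, with a log2 fold change of STING KO over cGAS KO of 0.60 ± 0.24 (SE). Sik1, at 21.9, 34.6 and 26.9 CPM, and Nr4a3, at 29.1, 39.6 and 44.8 CPM, were above every WT library as well and overlapped with STING KO. Fos, at 8.30, 5.43 and 6.62 CPM, and Dusp1, at 21.9, 14.6 and 18.0 CPM, were near or below WT. The log2 fold change of STING KO over cGAS KO was 2.11 ± 0.42 (SE) for Fos and 1.37 ± 0.26 (SE) for Dusp1, and neither passed over all genes. Both comparisons share the STING KO libraries.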

How the data were processed

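The members, the gene lists and the rule for named genes were chosen with earlier results of these data known. Polyadenylated RNA was extracted with Trizol and read in pairs on an Illumina instrument, per the labels' protocols. The submitters' processing notes name HISAT2 for alignment, featureCounts for counting and mm10 as the build. Tool versions, annotation release, strandedness and the rule for reads that match several places are not stated. The authors deposited 1 file per library, with whole-number counts for each Ensembl gene and no normalization. Of 54532 IDs, 54495 matched GENCODE M21 (GRCm38, the assembly of mm10). All IDs entered the library totals.

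Counts of all 9 libraries were fitted with edgeR 4.0.16 (R 4.3.3) and tested by its quasi-likelihood F test, using TMM factors and filterByExpr. The threshold was a Benjamini-Hochberg adjusted p of 0.05 over all genes tested. The SE was taken from the fold change and its F statistic. The fit of 6 libraries recomputed filter and scaling. Code for the fits was tested on simulated data. The alternatives were DESeq2 1.42.0, limma 3.58.1 (voom, with and without quality weights), other scalings, filters and thresholds, other sets of libraries, leaving out each library, and the replicate number as a block. Libraries of the same group differed by more than sampling noise in a chi-square test.

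Named genes are Sting1 and Cgas, genes called in the fit of 9 or 6 libraries, the 10 with the smallest p in each direction in each fit, for each list the member with the highest mean CPM and the 3 with the smallest p, immediate early genes with an unadjusted p under 0.05 in either fit, and mt-Nd3 with Gm28438. The text gives some of them. Symbols Sting1, Cgas, Ccn1 and Ccn2 replace older ones. Sequence matches between transcripts were found with BLAST at 90% identity or more.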

Additional observations from a re-analysis of the deposited data

How the results depend on the processing

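Over 9 libraries edgeR called 0 genes, and also 0 with RLE scaling, with library totals, with a filter on mean CPM, with limma-voom, with only the STING KO and WT libraries, with 7 libraries and at adjusted p-value thresholds of 0.01 and 0.1. Without a count filter it called 4, with DESeq2 10, with limma-voom and quality weights 178 (128 higher and 50 lower), with 6 libraries 4 and with the 4 STING KO and WT libraries alone 10. Leaving out 1 library at a time gave 0 to 0. The replicate block gave 0 genes as well. It had no call to change, since it was fitted over 9 libraries only, where edgeR called 0 genes without it. Between libraries of the same replicate number, deviations from the group means correlated at 0.327, -0.447 and -0.419. STING KO replicate 2 and WT replicate 3 correlated at 0.478 with each other and negatively with the other libraries of the opposite group. These 2 libraries set the signs, so the correlations cannot show whether replicate numbers pair the samples. Of the 4 genes called over 6 libraries, the adjusted p over the alternatives ranged from 0.00051 to 1.0 for Arc, from 0.00269 to 1.0 for Junb, from 9.19e-06 to 1.0 for Gm28438 and from 2.94e-06 to 1.0 for mt-Nd3. The count over 6 libraries was 321 without a count filter (190 higher and 131 lower), 37 with DESeq2, 32 with quality weights, 0 at a threshold of 0.01, 0 with 7 libraries and 10 with 4. Leaving out 1 of its libraries gave 0 to 34 genes, with 34 without WT replicate 2 and 0 without STING KO replicate 1, STING KO replicate 3 or WT replicate 1. A lone library left in a group was assumed to vary like the others. No block was fitted over 6 libraries. Against cGAS KO 0 genes were called over 9 libraries, 3 over 6, and 0 with the replicate block. The median of the immediate early genes was 0.351 to 0.681 when 1 library was left out, and was positive under each alternative run. Members called were 25, all higher, with quality weights, 3 with DESeq2 and 3 with 4 libraries. The share on Gm28438 differed by 80.0 to 85.0 percentage points when 1 library was left out. Of 69 genes, 66 kept their direction under each alternative run. Adar turned to 0.0751 with quality weights, 0.148 with 6 libraries, 0.149 with 7 and 0.151 with 4, and lay between -0.207 and 0.185 when 1 library was left out, highest without WT replicate 3. Without WT replicate 1 the choroid plexus markers Ttr and Kcne2 turned to 1.53 and 0.753, in ranges of -4.31 to 1.53 and -3.54 to 0.753 over the libraries left out. The cause of these differences was not tested. Depth limits what can be said of genes with 0 counts, such as Trex1, Tnf and Ccl2, which may be expressed below the level of 3 counts a library.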
